A study of Mus musculus with 12 samples.

Results

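Transcripts of 9 genes that encode enzymes making hydrogen peroxide, superoxide or nitric oxide, or the proteins those enzymes depend on, were followed through mouse skin sampled at tick bites. The 9 genes are Duox1, Duoxa1, Duox2, Duoxa2, Cybb, Cyba, Ncf1, Ncf4 and Nos2, out of 25070 named genes in the expression table. They were selected by symbol as a functional family, and Duox2 and Duoxa2 were picked for their high levels in the saliva immune library, so their levels in that library are given as a description with no test. All 9 were found in the table.

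Gene expression was measured by RNA sequencing of total RNA from skin of mice exposed to repeated tick infestation, in 12 libraries. The saliva immune group has 1 library, from a bite. The unbitten skin labelled naive has 2 libraries, first exposure has 3, ticks 2x has 3 and ticks 3x has 3, all but the naive ones taken at a bite. Biopsies were taken 4 days after attachment, and the labels carry that time for the unbitten skin as well. Strain, sex, age and tick species are not given in the labels, nor is how saliva immunity was raised, whether the sampled infestation counts among the exposures of 2x and 3x, or whether any libraries share an animal. The saliva immune and first exposure libraries share one number in their sample titles, and the naive, 2x and 3x libraries share another. Any difference of the first exposure or saliva immune libraries from naive skin, 2x or 3x therefore cannot be told apart from that title number.

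The dual oxidases DUOX1 and DUOX2 are membrane enzymes of epithelia that release hydrogen peroxide to the outside of the cell, and each needs a partner, DUOXA1 or DUOXA2, to mature and reach the surface. The phagocyte NADPH oxidase makes superoxide: its membrane core consists of the catalytic subunit encoded by Cybb and its partner encoded by Cyba, and it is switched on when cytosolic subunits, among them those encoded by Ncf1 and Ncf4, join it. Inducible nitric oxide synthase, encoded by Nos2, makes nitric oxide from arginine and is best known from activated macrophages and, in skin, from keratinocytes of injured epidermis.

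Estimated depth was 12.5 M to 29.8 M (mega) reads per library, and 3 reads, taken as the detection floor, corresponded to 0.101 to 0.240 CPM (reads of a gene per M reads of the library). Markers of skin were present in every library, with 1660 to 4846 CPM of the basal keratin gene Krt5 and 691 to 3366 CPM of the collagen gene Col1a1. The biopsies differed widely inside groups. The summed level of 17 hair follicle genes ranged from 12.9 to 31619 CPM over the 12 libraries, and that of 12 macrophage and monocyte genes from 407 to 3677 CPM. In bulk skin, fewer cells of a type and less RNA per cell cannot be told apart.

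The DUOX genes sit side by side on chromosome 2. In GENCODE M21 on GRCm38.p6, Duox2 lies on the minus strand at chr2:122279247-122298449, Duoxa2 on the plus strand at chr2:122298900-122302885, Duoxa1 on the minus strand at chr2:122302191-122313730 and Duox1 on the plus strand at chr2:122315672-122347972. Each oxidase gene is thus head to head with its own maturation factor. In GENCODE, Duoxa1 and Duoxa2 overlap by 695 bases on opposite strands. In RefSeq these 2 do not overlap, with Duoxa2 ending at 122302885 and Duoxa1 beginning at 122303540. There Duox1, from 122313010, overlaps Duoxa1, which runs to 122313763. The annotation behind the counting and its use of strand are not given, so reads from such an overlap cannot be told apart. RefSeq promoter sequences of GRCm38.p6, from 250 bases before to 50 bases after the start, were available for 7 of the 9 genes. The windows of Duox2 and Duoxa2 are shown because both genes were far higher in the saliva immune library than elsewhere and face each other. The starts used for these windows lie 673 bases apart, with 172 bases between the windows. Duox2 is at chr2:122298178-122298477 on the minus strand and Duoxa2 at chr2:122298650-122298949 on the plus strand, both written 5′ to 3′ on the strand of the gene. Capitals mark matches to the motifs searched.
Duox2: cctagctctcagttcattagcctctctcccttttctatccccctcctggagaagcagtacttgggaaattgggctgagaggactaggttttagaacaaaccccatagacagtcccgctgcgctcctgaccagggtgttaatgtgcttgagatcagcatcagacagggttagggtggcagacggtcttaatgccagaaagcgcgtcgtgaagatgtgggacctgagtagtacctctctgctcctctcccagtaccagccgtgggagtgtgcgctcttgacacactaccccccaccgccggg
Duoxa2: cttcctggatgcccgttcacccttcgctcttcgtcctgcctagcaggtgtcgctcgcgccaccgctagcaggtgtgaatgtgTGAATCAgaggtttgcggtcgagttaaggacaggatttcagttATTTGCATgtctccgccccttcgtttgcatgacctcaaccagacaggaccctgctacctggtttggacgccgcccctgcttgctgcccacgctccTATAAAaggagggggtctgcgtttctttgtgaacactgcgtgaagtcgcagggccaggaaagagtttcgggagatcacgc
The Duoxa2 window held TATAAA at position -30 from the start, the octamer ATTTGCAT at -125 and an AP-1 match to TGANTCA at -168. Of 32851 promoter windows of the same length, 13.6% held TATAAA, 1.74% ATTTGCAT and 7.81% TGANTCA on either strand. The Duox2 window held none of these, nor the STAT motif TTCNNNGAA (in 8.30% of windows), the STAT6 motif of TTC and GAA with 4 free bases between them (6.95%) or a kappaB-like motif of GGG and TTTCC with 2 free bases between them (1.63%), all of which the Duoxa2 window also lacked. Matches are descriptions of the letters in these windows. A further RefSeq model of Duox2 extends to 159 bases from the start of Duoxa2. The GENCODE extent of Duox2 also runs past the start used for the window, to chr2:122298449. Most of the Duox2 window thus lies inside the annotated gene, and sequence before these further starts was not searched as a Duox2 promoter.

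Duox2 stood far above its level elsewhere in the saliva immune library. It had 99.6 CPM there, with an exact Poisson 95% interval of 95.7 to 104 CPM that covers counting error only. Its levels were 2.45 and 3.36 CPM in the naive libraries, 2.95, 1.47 and 4.04 CPM at first exposure, 19.1, 14.2 and 10.4 CPM in ticks 2x, and 7.60, 6.60 and 4.71 CPM in ticks 3x. The naive and first exposure ranges overlapped, the 3 libraries of 3x lay above both, and the 3 of 2x lay above those of 3x. Every one of the 6 libraries from repeat exposure (2x and 3x together) was above all 5 libraries from first exposure and naive skin, a separation found upward for 0.733% of the 17064 genes tested.

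Duoxa2, the maturation factor of DUOX2, was the rarer transcript of the pair in every library, also per kilobase of exon. It had 21.02 CPM in the saliva immune library, 0.269 and 0.320 CPM in naive skin, 0.210, 0.112 and 0.302 CPM at first exposure, 3.74, 0.740 and 1.24 CPM in 2x, and 0.584, 0.842 and 0.249 CPM in 3x. The 2x libraries lay above the naive ones, and the 3x range reached down into the naive range. The second first-exposure library was below its floor of 0.167 CPM. Duoxa2 passed the minimum for testing (1 CPM in at least 2 of the 11 libraries tested) only through 2x, so its entry into the tests was tied to the group where it was high.

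Duox1 and Duoxa1, the second oxidase and its maturation factor, varied less. Duox1 had 65.6 CPM in the saliva immune library, 21.5 and 34.3 CPM in naive skin, 20.9, 15.0 and 34.3 CPM at first exposure, 24.6, 24.3 and 28.3 CPM in 2x, and 30.2, 25.8 and 27.3 CPM in 3x. Duoxa1 had 26.1 CPM in the saliva immune library, 13.2 and 14.4 CPM in naive skin, 12.7, 10.47 and 19.8 CPM at first exposure, 20.8, 17.2 and 12.97 CPM in 2x, and 16.7, 12.6 and 14.2 CPM in 3x. For both genes the 4 replicated groups overlapped, and among these groups no 2 neighbours in the order of their means differed by more than the larger SD. The order of means was saliva immune, naive, 3x, 2x and first exposure for Duox1, and saliva immune, 2x, 3x, first exposure and naive for Duoxa1.

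**Figure D1:**
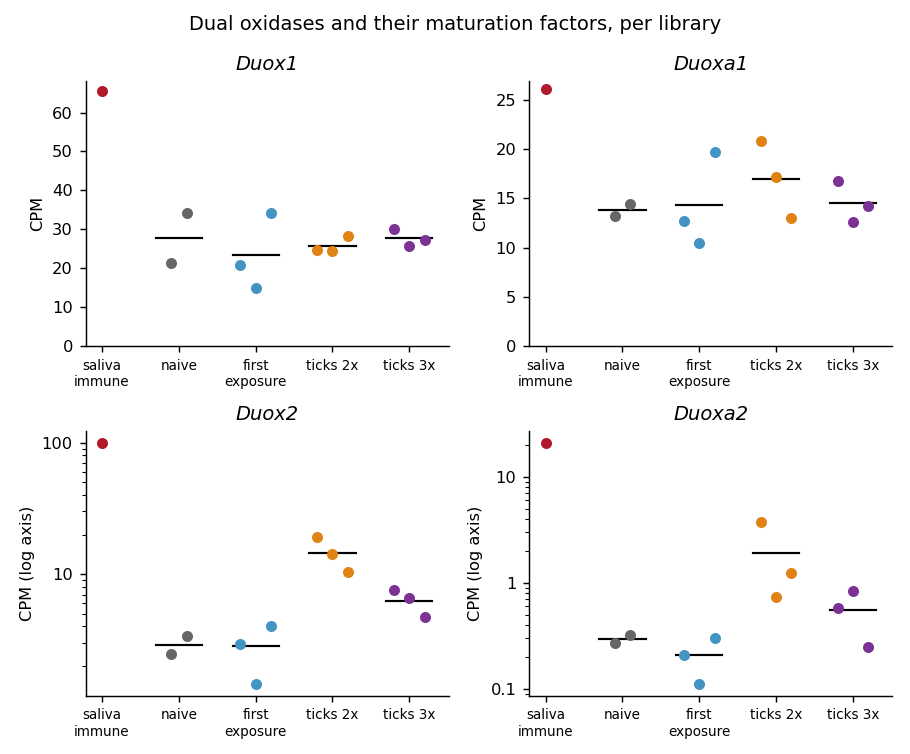
Levels of the 4 DUOX genes in CPM, by group, with 1 point per library and a line at the group mean; the panels of Duox2 and Duoxa2 have log axes. The saliva immune point is the highest in each panel, at 99.6 CPM for Duox2 and 21.02 CPM for Duoxa2, and the 2x and 3x libraries of Duox2 lie above the naive and first exposure ones.

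All 4 DUOX genes were highest in the saliva immune library, where 6.15% of the 15843 genes with a mean of at least 1 CPM had their highest level. Nothing is read from that count, since 2 of the 4 were picked on it. Duox2 was 5.21 times and Duoxa2 5.63 times the highest other library, which for both was the first 2x library, of the other title number. Only 2 other genes were at least 5 times the highest other library, named here after their values were seen: the neurofilament gene Nefl, 68.9 times, and the lipoxygenase gene Alox15, 5.12 times. The ratio was 1.91 for Duox1 and 1.25 for Duoxa1. Against the mean of the 3 first exposure libraries, which share its title number, the saliva immune library had 35.3 times as much Duox2 and 2.80 times as much Duox1. The same ratio was 38.3 for Nos2 and 3.49 for Ncf4. Eosinophil markers were highest in the saliva immune library too. The 3 genes found (Siglecf, Prg2 and Ccr3) summed to 30.3 CPM in it and to between 0.780 and 8.84 CPM elsewhere. In 2x, the group with the next-highest Duox2 levels, they summed to 4.52, 4.91 and 4.78 CPM, against 4.50 and 1.36 CPM in naive skin. The part of the eosinophil genes in the DUOX levels was not tested. The 9 wounded epidermis genes summed to 733 CPM in the saliva immune library, against 431 to 2214 CPM in the other libraries, but members of that list differed. Krt17 had 297 CPM there, the lowest of the 12 libraries, while Krt16 had 141 CPM and Krt6b 127 CPM, both inside the ranges of the other libraries (4.95 to 289 and 7.47 to 382 CPM). Their part in the DUOX levels was not tested.

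Per length, the balance between the paralogues also differed across the libraries. The ratio of Duox2 to Duox1 in CPM per kilobase of exon was 1.18 in the saliva immune library. It was 0.0890 and 0.0763 in naive skin, 0.110, 0.0764 and 0.0918 at first exposure, 0.604, 0.455 and 0.287 in the 2x libraries, and 0.196, 0.199 and 0.134 in the 3x libraries. Duox1 was thus the more abundant oxidase transcript per length in the 11 other libraries, with the 2x and 3x ratios above all 5 of first exposure and naive skin. The ratio of Duoxa2 to Duoxa1 was 2.01 in the saliva immune library, 0.0509 and 0.0555 in naive skin, 0.0414, 0.0266 and 0.0382 at first exposure, 0.448, 0.108 and 0.239 in the 2x libraries, and 0.0872, 0.167 and 0.0437 in the 3x libraries. Here 1 library of 3x fell below both naive ones. Exon lengths are the union of GENCODE M21 exons and were not matched to the annotation used for counting.

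**Figure D2:**
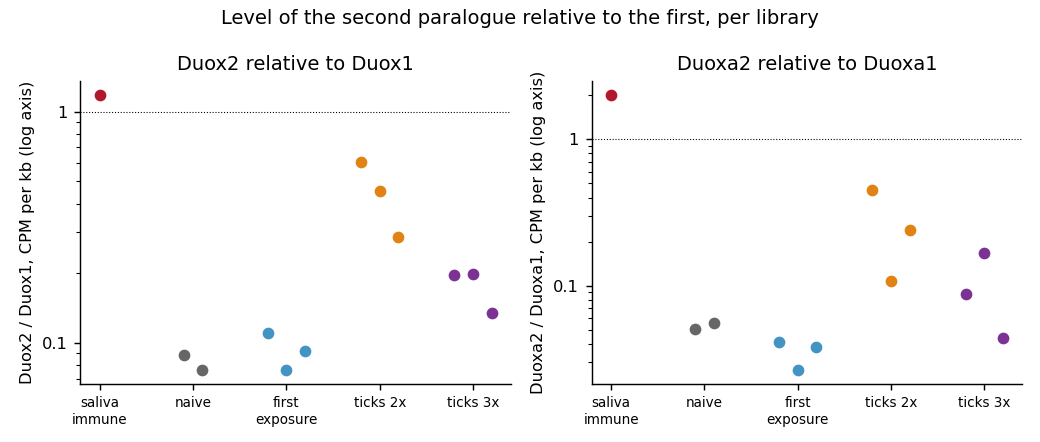
Ratio of Duox2 to Duox1 and of Duoxa2 to Duoxa1 in each library, in CPM per kilobase on a log axis, with a dotted line at 1. Both ratios exceed 1 in the saliva immune library only, at 1.18 and 2.01, and the Duox2 to Duox1 ratio is higher in all 2x and 3x libraries than in naive and first exposure libraries.

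In ticks 2x (n = 3) against naive skin (n = 2), 7 of 8 fold changes were positive, leaving out Duoxa2, which entered the tests through 2x. Their median was 1.15 on the log2 scale, against 0.01 over all genes. None of the 9 genes passed the test, limma on log2(CPM + 1) with Benjamini-Hochberg adjustment over all 17064 genes and a threshold of 0.05, and 0.0352% of all genes did. At an unadjusted p under 0.05, 2 of the 8 genes other than Duoxa2 (Duox2 and Cyba) and 10.9% of all genes passed. Duox2 had the smallest p of the 9: its log2 fold change was 1.97 ± 0.35 (SE), with a 95% interval of 1.19 to 2.75, unadjusted p = 0.00027 and limma adjusted p = 0.196. It ranked 23 among all genes by p. No test of Duoxa2 is given here, because its entry rested on the 2x libraries. Duox1 was at -0.08 (limma adjusted p = 0.969) and Duoxa1 at 0.26 (limma adjusted p = 0.771), with 95% intervals of -0.77 to 0.61 and -0.36 to 0.88. The 2x and naive libraries did not overlap for 4 of the 8 genes other than Duoxa2, all higher in 2x (Duox2, Cyba, Ncf1 and Ncf4), a separation seen upward for 14.7% of all genes. With hair follicle content as a covariate the Duox2 fold change was again 1.97.

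In ticks 3x against naive skin, limma called 0 of the 9 genes and 0.00586% of all genes. At an unadjusted p under 0.05 there was 1 of the 9, against 6.95% of all genes. That gene was Duox2, with a log2 fold change of 0.89 ± 0.35 (SE; limma adjusted p = 0.669), and it was the 1 member whose 3x libraries all lay above the naive ones, as did those of 15.5% of genes. The direct comparison of 3x with 2x gave 0 calls among the 9 genes and 0% of all genes by limma, with 1 of the 8 genes other than Duoxa2 and 5.15% of all genes at an unadjusted p under 0.05. Duox2 had a log2 fold change of -1.08 ± 0.31 (SE; unadjusted p = 0.00673, limma adjusted p = 0.894). Duox2 was the 1 member with all 3x libraries below all 2x libraries, as were 4.41% of genes.

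Repeat exposure (2x and 3x, n = 6) against first exposure (n = 3) gave 0 of 9 calls by limma, against 0.820% of all genes. Nos2 was under 1 CPM in every first exposure library and, outside 2x and 3x, reached it in the second naive library only. Its entry into the tests was thus tied to the repeat exposure libraries, and no test of it is given for this comparison. Duoxa2 and Nos2 aside, Duox2, Ncf1 and Ncf4 had an unadjusted p under 0.05, as did 20.6% of all genes. The fold changes of the 8 genes other than Duoxa2, Nos2 among them, were all positive, against 43.2% of all genes. Their median was 1.06 on the log2 scale, against -0.06 over all genes. Duox2 came nearest to the threshold, with a log2 fold change of 1.51 ± 0.39 (SE; unadjusted p = 0.00265, limma adjusted p = 0.0926), and its libraries did not overlap, as for 3.07% of genes upward. Without the third first-exposure library, Duox2 (log2 fold change 1.74, limma adjusted p = 0.0374) and Ncf1 (1.67, limma adjusted p = 0.0445) were called, and so were 2281 genes in all, against 140 with it. First exposure against naive skin gave 0 of 9 calls by limma and 0.0117% of all genes, and 0 of 9 against 16.4% at an unadjusted p under 0.05. Nos2 was the 1 member there with separate libraries, lower at first exposure, as were 14% of genes.

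**Figure D3:**
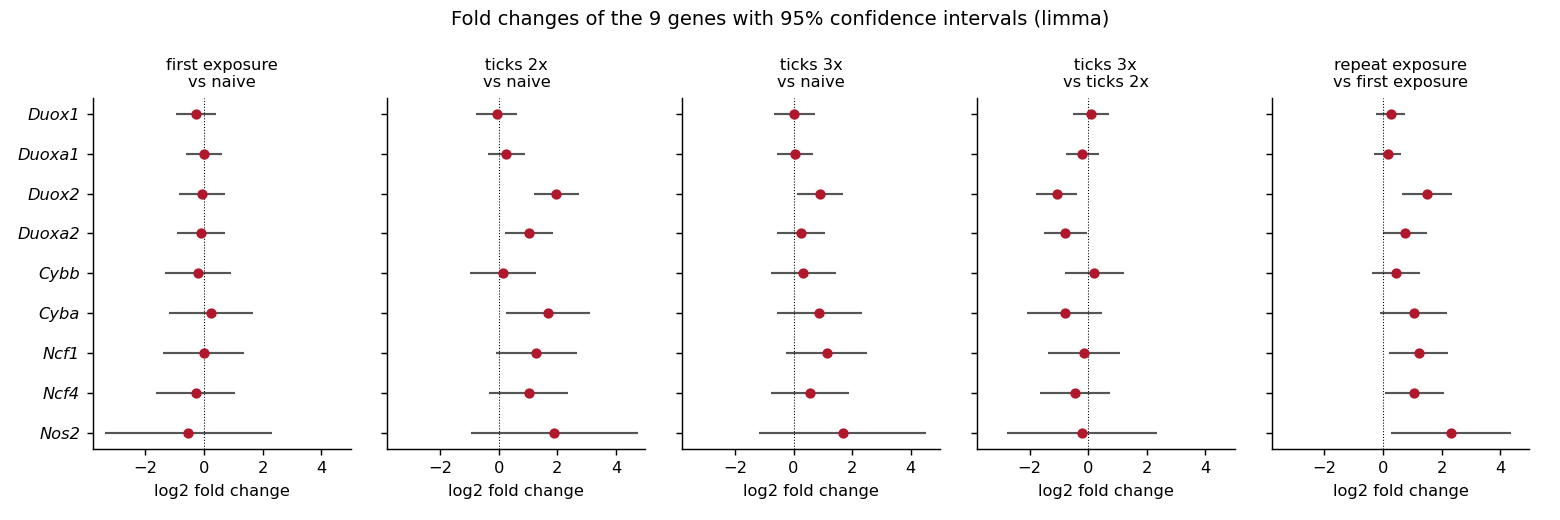
Log2 fold changes of the 9 genes in the 5 comparisons, with 95% confidence intervals from limma on log2(CPM + 1). The interval of Duox2 lies above 0 in 2x against naive (1.19 to 2.75), 3x against naive and repeat against first exposure and below 0 in 3x against 2x, and no point passed the adjusted threshold. Duoxa2 entered the tests only through 2x, so its points and intervals are drawn as a description and nothing is read from them. The same holds for Nos2 in repeat against first exposure, where its entry was tied to the repeat exposure libraries.

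The membrane core of the phagocyte oxidase gave different profiles for its 2 subunits. Cybb, the catalytic subunit, on chromosome X, had 36.3 CPM in the saliva immune library, 40.1 and 24.7 CPM in naive skin, 27.4, 14.7 and 49.9 CPM at first exposure, 39.3, 43.8 and 24.5 CPM in 2x, and 47.1, 53.8 and 25.4 CPM in 3x. All its groups overlapped, and the spread inside first exposure covered nearly the whole range of the series. Its log2 fold change was 0.14 in 2x against naive, with a 95% interval of -0.98 to 1.26 (limma adjusted p = 0.963), and 0.44 in repeat against first exposure (limma adjusted p = 0.481). Cyba, which encodes the smaller subunit, on chromosome 8, had 44.2 CPM in the saliva immune library, 20.4 and 11.5 CPM in naive skin, 15.7, 11.0 and 35.1 CPM at first exposure, 29.3, 62.2 and 75.0 CPM in 2x, and 40.9, 45.6 and 13.05 CPM in 3x. All 3 libraries of 2x were above both naive ones, while the third 3x library was within the naive range. The log2 fold change of Cyba in 2x against naive was 1.69 ± 0.64 (SE; unadjusted p = 0.0265, limma adjusted p = 0.393). Per kilobase of exon Cyba had the highest median level of the 9 genes over the 12 libraries, 31.0, against 6.51 for Cybb. In GENCODE, Cyba lies wholly inside Gm20388 on the opposite strand, with an overlap of 8155 bases.

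The cytosolic subunits resembled Cyba more than Cybb. Ncf1, the organizer subunit that carries the activating phosphorylation sites, on chromosome 5, had 65.6 CPM in the saliva immune library, 28.5 and 18.0 CPM in naive skin, 19.1, 13.6 and 43.4 CPM at first exposure, 35.1, 81.3 and 63.3 CPM in 2x, and 52.2, 98.4 and 25.6 CPM in 3x. Ncf4, whose product binds a phosphoinositide of the phagosome membrane, on chromosome 15, had 30.5 CPM in the saliva immune library, 10.4 and 9.27 CPM in naive skin, 8.005, 4.18 and 14.0 CPM at first exposure, 10.7, 36.5 and 22.8 CPM in 2x, and 18.6, 22.9 and 7.67 CPM in 3x. For both genes the 2x libraries were all above the naive ones, though the first 2x library by little for Ncf4, and the third 3x library was low. In 2x against naive the log2 fold change was 1.28 for Ncf1 (limma adjusted p = 0.486) and 1.02 for Ncf4 (limma adjusted p = 0.561). In repeat against first exposure it was 1.22 for Ncf1 (limma adjusted p = 0.184) and 1.07 for Ncf4 (limma adjusted p = 0.223). In GENCODE, Ncf1 overlaps Gtf2ird2 on the opposite strand by 4303 bases, and Gtf2ird2 had between 7.35 and 12.2 CPM in every library. The distance between standardized profiles, in which 0 means the same shape over the 12 libraries, was 0.35 between Ncf1 and Ncf4, 0.37 between Ncf1 and Cyba and 0.42 between Ncf4 and Cyba, against 0.75 to 0.90 between each of these and Cybb.

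Nos2, on chromosome 11, was near 1 CPM or below in some libraries and far higher in others of the same group. It had 24.0 CPM in the saliva immune library, 0.940 and 1.84 CPM in naive skin, 0.699, 0.446 and 0.733 CPM at first exposure, 0.344, 14.8 and 30.3 CPM in 2x, and 10.1, 18.9 and 0.946 CPM in 3x. High values stood in the second and the third 2x library, the first and the second 3x library and the saliva immune library, while the first 2x library held the lowest value of all. The log2 fold change in 2x against naive was 1.90 ± 1.27 (SE), with a 95% interval of -0.95 to 4.75 (limma adjusted p = 0.611). It was 3.25 without the first 2x library and 0.98 without the third. In first exposure against naive it was -0.53 (limma adjusted p = 0.843). In repeat against first exposure it was 2.32 ± 0.93 (SE), given as a description because the entry of Nos2 into the tests was tied to the repeat exposure libraries.

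**Figure D4:**
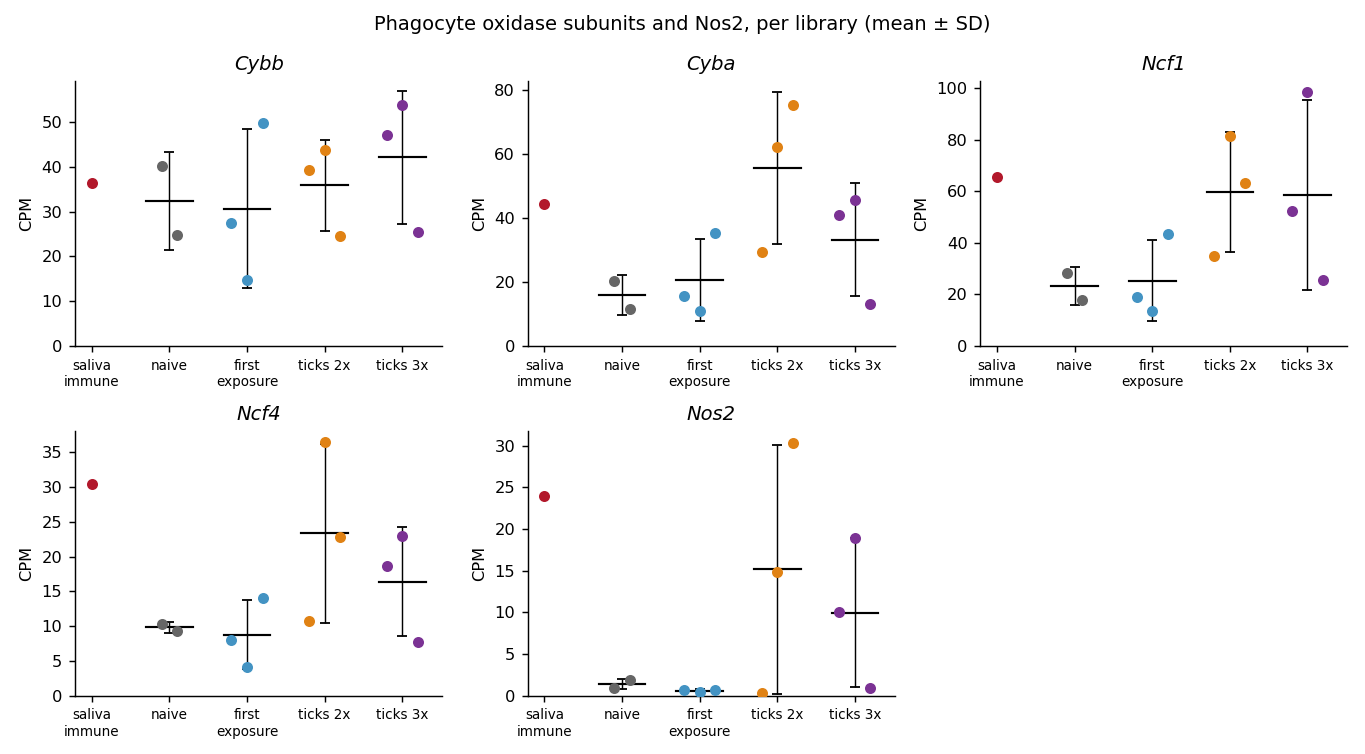
Levels of the 4 phagocyte oxidase genes and Nos2 in CPM, by group, with 1 point per library and the mean ± SD (no error for the single saliva immune library). Nos2 in 2x ran from 0.344 to 30.3 CPM, and all groups of Cybb overlap.

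The summed macrophage and monocyte markers were high in the same libraries as Nos2, and Cybb followed that sum less closely. The 12 macrophage and monocyte genes, all found and none listed at 0 in any library, summed to 2023 CPM in the saliva immune library, 1332 and 820 CPM in naive skin, 652, 407 and 1383 CPM at first exposure, 1213, 3677 and 2239 CPM in 2x, and 2405, 3260 and 827 CPM in 3x. The 5 libraries with the most Nos2 were also the 5 with the highest sums. Cd163 and Mrc1 weighed most in the sums, with means of 406 and 373 CPM over the 12 libraries, and not every gene had that order. Cd14 had 14.6 CPM in the saliva immune library, against 51.0 and 41.3 CPM in naive skin. The 12 neutrophil genes summed to 90.2 CPM in the saliva immune library, 51.4 and 68.2 CPM in naive skin, 33.4, 19.4 and 20.5 CPM at first exposure, 34.2, 492 and 173 CPM in 2x, and 89.3, 66.7 and 17.9 CPM in 3x. Of the 12 neutrophil genes, Ly6g was listed at 0 in 5, Elane in 3, Camp in 4, Ltf in 2 and Ngp in 9 of the 12 libraries. Mpo, Retnlg, Cxcr2, Csf3r, S100a8, S100a9 and Mmp8 were above 0 in every library. S100a8 and S100a9, also counted among the wounded epidermis genes, had 95.7 and 273 of the 492 CPM in the second 2x library. In repeat against first exposure 11 of the 12 macrophage and monocyte genes had positive fold changes, against 43.2% of all genes. Their median was 0.97 on the log2 scale, against -0.06 over all genes. In first exposure against naive 10 of the 12 were lower, with a median of -0.37. All 12 were higher in 2x against naive (median 0.88) and 10 in 3x against naive (median 0.57), with 0 at an unadjusted p under 0.05 in either. The part of these cells in the results was not tested. Cybb had 24.5 CPM in the third 2x library, with a sum of 2239 CPM, and 49.9 CPM in the third first-exposure library, with a sum of 1383 CPM. Single genes of the sum differed between these libraries. Cd163 had 722 CPM in that 2x library against 158 CPM in that first-exposure library, and Mrc1 471 against 247 CPM. Adgre1 went the same way as Cybb, with 46.8 against 70.0 CPM, as did Ccr2, with 48.9 against 75.0 CPM. Ccr2 and Adgre1 held places 8 and 9 among the profiles nearest to Cybb over the 12 libraries. Duox2 did not follow the sums closely either: the first 2x library had the second-highest Duox2 level of the series, 19.1 CPM, with a sum of 1213 CPM.

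**Figure D5:**
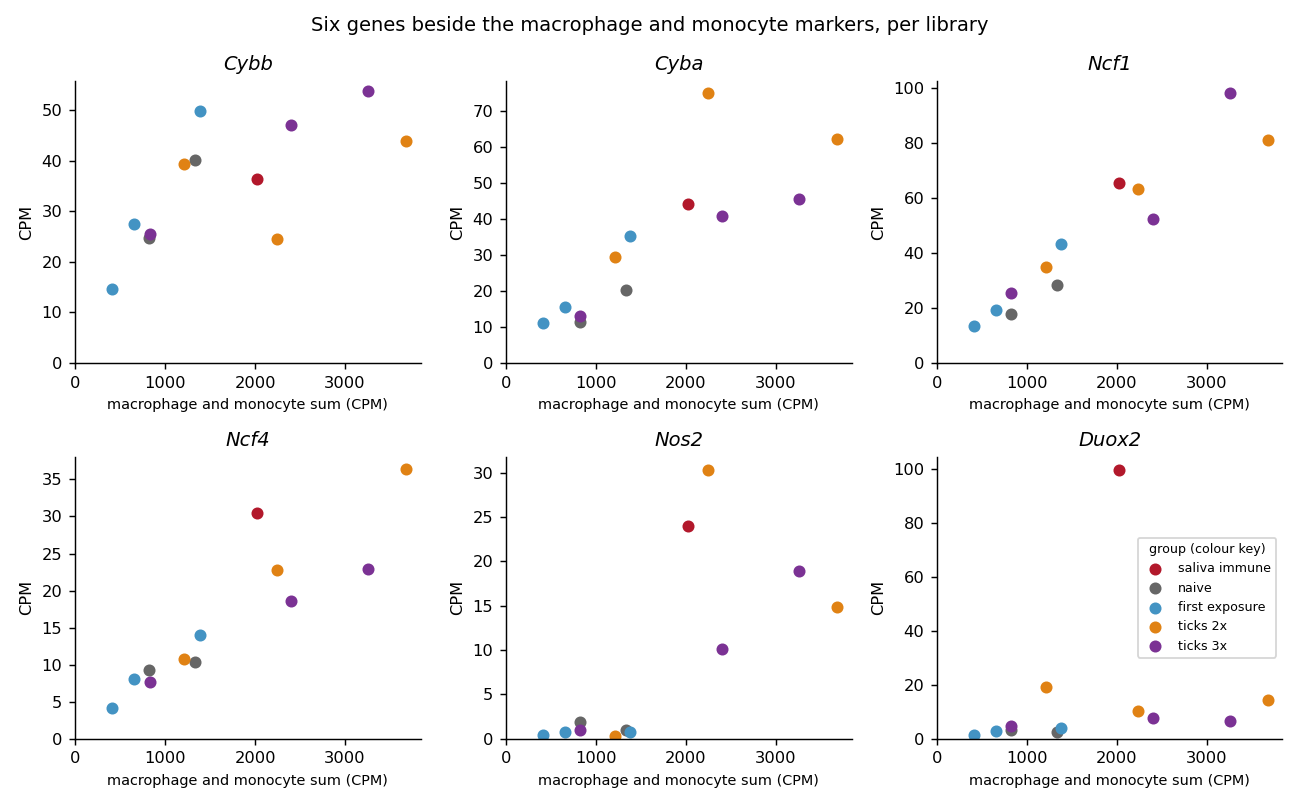
Levels of Cybb, Cyba, Ncf1, Ncf4, Nos2 and Duox2 in CPM (vertical) against the summed CPM of 12 macrophage and monocyte genes (horizontal), 1 point per library, by group. The 5 libraries with Nos2 of 10.1 CPM or more are those with the 5 highest sums, from 2023 to 3677 CPM.

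Other genes of these pathways were read from 5 lists, and limma called none of their members in any of the 5 comparisons. Of the other NADPH oxidase parts, 6 of 10 listed were tested, and in repeat against first exposure 5 were higher and 1 lower, 3 of them at an unadjusted p under 0.05 against 20.6% of all genes, with a median log2 fold change of 0.39 against -0.06 over all genes. The small GTPase gene Rac1, whose product has a role in switching on several oxidases, had 220 to 335 CPM in the 12 libraries and a log2 fold change of 0.28 (limma adjusted p = 0.205). Rap1a, a GTPase gene whose product associates with the phagocyte oxidase core, had 49.5 to 94.9 CPM and a log2 fold change of 0.49 (limma adjusted p = 0.120). Of 18 tested genes for nitric oxide and arginine, 13 were higher and 5 lower in the same comparison, 3 at an unadjusted p under 0.05, a share below the 20.6% of all genes, with a median of 0.18.

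Arg1, arginase, which uses the same substrate as nitric oxide synthase, had 306 CPM in the saliva immune library, 30.6 and 31.2 CPM in naive skin, 31.9, 37.1 and 45.4 CPM at first exposure, 41.1, 354 and 445 CPM in 2x, and 250.1, 413 and 24.3 CPM in 3x. Its 5 high libraries were the 5 in which Nos2 was high. Its log2 fold change was 2.56 in 2x against naive (limma adjusted p = 0.481) and 2.06 in repeat against first exposure (limma adjusted p = 0.230). Slc7a1, an arginine transporter, had a negative log2 fold change in repeat against first exposure, -1.23 (limma adjusted p = 0.266).

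Of the peroxidases that use hydrogen peroxide, 2 of 5 listed were tested. Mpo, myeloperoxidase of neutrophil granules, was at 0.0558 to 3.96 CPM and had a log2 fold change of 1.70 in 2x against naive (unadjusted p = 0.000797, limma adjusted p = 0.227). Its naive levels were 0.101 and 0.160 CPM, beside floors of 0.101 and 0.240 CPM, so this fold change rests on values near the floor. Of the 8 neutrophil genes tested there, 6 were higher and 2 lower. Among the lower was Ltf, with 28.1 and 2.24 CPM in naive skin and 2.95, 0.211 and 0.248 CPM in 2x. Pxdn, peroxidasin of the extracellular matrix, had -0.30 in 2x against naive (limma adjusted p = 0.702). All 22 genes for removal of superoxide and peroxide were tested, and in 2x against naive 15 were higher and 7 lower, 4 at an unadjusted p under 0.05 against 10.9% of all genes, with a median of 0.33 against 0.01. Over all genes 51.9% were higher. Hmox1, haem oxygenase, had a log2 fold change of 3.09 there (limma adjusted p = 0.400), with 108, 1504 and 1201 CPM in 2x against 73.0 and 61.7 CPM in naive skin. Gpx3, the secreted glutathione peroxidase, had -0.84 (limma adjusted p = 0.408). The 22 removal genes did not have this shift in 3x against naive, where 11 were higher and 11 lower. Their median there was 0.01 against 0.02 over all genes, with 0 at an unadjusted p under 0.05 against 6.95%. In 3x against 2x, 5 were higher and 17 lower. In repeat against first exposure 13 were higher and 9 lower, with a median of 0.13 and 4 at an unadjusted p under 0.05 against 20.6% of all genes.

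Genes listed as inducers and transducers of Nos2 or Duox2, with 15 of 18 tested, had 13 positive and 2 negative fold changes in repeat against first exposure. Over all genes 43.2% were positive. The median log2 fold change was 0.67 against -0.06 over all genes, and 8 of the 15 had an unadjusted p under 0.05 against 20.6% of all genes. In first exposure against naive 13 of the 15 were lower, with a median of -0.43 against 0.08 over all genes. The medians in 2x and 3x against naive were 0.14 and 0.16. There 0 and 1 of the 15 had an unadjusted p under 0.05, against 10.9% and 6.95% of all genes. In repeat against first exposure Il4ra, the receptor chain shared by interleukin-4 and interleukin-13, had a log2 fold change of 1.67 (limma adjusted p = 0.229). Tnfrsf1a, a receptor for tumour necrosis factor, had 0.48 (limma adjusted p = 0.18). Il4ra had 332 CPM in the saliva immune library, 210 and 170 CPM in naive skin, 45.2, 31.5 and 115 CPM at first exposure, 52.9, 493 and 282 CPM in 2x, and 248, 294 and 56.5 CPM in 3x. Its first exposure values lay below both naive ones, and 1 library each of 2x and 3x lay there too.

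The genes with the profiles most like a member over the 12 libraries were read among 13970 genes with a mean of at least 1 CPM. For Duox2 they were Duoxa2, Daglb and Pmm1, at distances of 0.34, 0.40 and 0.44. For Duoxa2 they were Pmm1 (0.31), Duox2 (0.34) and Aldh1a2 (0.45), and for Duox1 they were Sema3b, Arl4a and P2rx1 (0.46 to 0.47). Duox1 and Duoxa1 were less alike, at 0.66. Without the saliva immune library the nearest to Duox2 were Bcap31, Spsb2 and Trappc4, with Duoxa2 in place 15, the nearest to Duoxa2 were Smco4, Ebpl and Tagln2, with Duox2 in place 4, and those to Duox1 were Igfbp3, Lmna and Scin. None of these 3 lists of nearest genes kept a gene when that library was left out, while Duox2 and Duoxa2 stayed near each other in both orders, at a distance of 0.54. The genes most like Cybb were Mmp2 (0.26), Lipa (0.37) and Pld4 (0.37), and those most like Nos2 were Msx3 (0.21), Arg1 (0.27) and Fcrlb (0.30). Leaving out the saliva immune library kept 2 of the 3 for Cybb and 2 of the 3 for Nos2. The libraries share depth and tissue make-up across genes, and the distances are descriptions.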

How the data were processed

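Total RNA from mouse skin was isolated with a Qiagen kit and sequenced with Illumina libraries, per the labels' protocols. STAR, Partek 8.0.19 and GRCm38.p6 are named in the submitters' processing notes, while the sources used here do not give the counting program, its strand setting or the annotation. The deposited table holds CPM of 25070 genes with an offset of 0.0001 added by the authors throughout. Column sums ran from 998572 to 998966 CPM. Among row names, 25 look like dates and 4 rows carry a repeated name. Depth was estimated from the steps of values between 0.01 and 3 CPM. Since only 73.4% to 79.3% of these were whole multiples within 0.02 reads, no count test was run.

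Log2(CPM + 1) values of the 17064 genes that reached 1 CPM in 2 or more of 11 libraries were tested with limma 3.58.1 in R 4.3.3, with a trend in the prior variance and a two-sided Benjamini-Hochberg adjusted p under 0.05. A fit of 4 groups with 7 residual degrees of freedom gave 4 comparisons, and a fit of 3 groups with 8 gave repeat exposure against first exposure. The saliva immune library (n = 1) entered no fit. As the labels do not say that libraries come from separate animals, p-values measure only the spread between these samples, which may be technical. The code was checked on simulated data.

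All 9 members were to be named. Of 5 pathway lists (73 genes, 69 found) the called members, or the 2 with the highest mean, were named. For 5 members the 3 genes with the nearest profiles (root mean square distance of log2(CPM + 1) brought to mean 0 and SD 1) were named, leaving out predicted and clone-named genes. The 14 marker lists held 111 genes, of which 109 were found. Gucy1a1 and Gucy1b1 were found under the older symbols Gucy1a3 and Gucy1b3, and Cybc1, Nox3, Epx, Il17a and Krt85 are not used here. The members and lists were chosen with earlier results of these data known. Alternatives were pseudocounts of 0.5 and 0.1, no filter or 5 CPM, median-of-ratios and quantile scaling, fits of only the groups compared or of 1 title number, a hair follicle covariate, robust moderation and leaving out each library. Python 3.11.15, pandas 2.3.3, numpy 2.4.6, scipy 1.17.1 and matplotlib 3.10.9 were used.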

Additional observations from a re-analysis of the deposited data

Results flagged for a closer look

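The saliva immune library entered none of the tests, and 4 of the 9 genes were higher in it than in each of the 11 other libraries, the naive ones included. Duox2 had 99.6 CPM there and Duoxa2 21.02 CPM. Duox1 had 65.6 CPM and Duoxa1 26.1 CPM. With 1 library there is no replicate check, and Duox2 and Duoxa2 were picked for these values.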

How the results depend on the processing

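Of 922 member fold changes under the alternatives, 886 kept their direction and their side of the threshold, 34 reversed and 2 newly passed. Of the 45 fold changes, 28 never reversed. The number of members called stayed at 0 in 102 of 103 counts, and when each library was left out in turn it ranged from 0 to 2 in repeat against first exposure. The log2 fold change of Duox2 in 2x against naive ranged from 1.76 to 2.17 when libraries were left out in turn (limma adjusted p 0.131 to 0.679) and from 1.94 to 2.26 under the other settings (limma adjusted p 0.102 to 0.485). In first exposure against naive, Duoxa1 was at -0.0837 with median-of-ratios scaling and -0.0591 with quantile normalization, and Ncf1 at 0.0719 with the hair follicle covariate. Duox1 in 3x against naive was at -0.0198 with median-of-ratios scaling, and Nos2 in 3x against 2x at 0.000836 with a pseudocount of 0.1. Leaving out each library in turn, the first exposure against naive fold changes ran from -0.24 to 0.19 for Duoxa1, -0.62 to 0.23 for Cybb, -0.47 to 0.34 for Ncf1, -0.61 to 0.0414 for Duox1, -0.31 to 0.20 for Duox2, -0.21 to 0.63 for Cyba and -0.66 to 0.11 for Ncf4. In 2x against naive they ran from -0.40 to 0.25 for Duox1 and -0.20 to 0.48 for Cybb. In 3x against naive they ran from -0.30 to 0.35 for Duox1, -0.000187 to 0.68 for Cybb and -0.0362 to 0.15 for Duoxa1. In 3x against 2x they ran from -0.62 to 0.34 for Ncf1, -1.56 to 0.77 for Nos2 and -0.0476 to 0.52 for Cybb. In repeat against first exposure they ran from -0.00699 to 0.57 for Duox1 and -0.0259 to 0.40 for Duoxa1. The causes were not tested. Median-of-ratios scaling, added after seeing the data for the saliva immune levels, put Duox2 there at 95.3 CPM, just below its counting interval of 95.7 to 104 CPM. The other 8 of the 9 levels stayed inside their counting intervals. Depth limits Duoxa2 in naive and first exposure skin, with 2 to 8 estimated reads per library. No paired analysis was possible because the labels number no replicates across groups.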
